A study of Mus musculus with 4 samples.

Results

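miR-486 is a muscle-enriched microRNA encoded inside Ank1, the gene of the membrane-skeleton adaptor ankyrin 1. Its 4 mature forms (miR-486a-5p, miR-486a-3p, miR-486b-5p and miR-486b-3p) were taken by name from the deposited miRNA rows, where they were 4 of 869 miRNAs with reads in any sample. All 4 had reads in every sample, as did 497 of the 869. Small RNA had been sequenced from C2C12 cells, a mouse skeletal muscle line whose strain background the labels give as 129/Rej and which forms myotubes when serum is lowered. All samples were taken on day 6 of differentiation in a high-glucose medium with 2% horse serum, either without guanidinoacetic acid (NC, 2 samples) or with 20 mM guanidinoacetic acid (GAA, 2 samples), an amino acid derivative and the direct precursor of creatine. The comparison addressed how GAA altered the miRNA profile of myotubes. C2C12 is a single clonal line, and nothing in the sources used here says that the 2 samples of a group came from separate cultures, so the p-values measure only the spread between these samples. In such bulk samples, fewer myotubes in a dish and less miR-486 in each myotube cannot be told apart.

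A miRNA precursor folds into a hairpin, and Dicer releases a duplex of its 5p and 3p arms, of which usually a single strand is kept by Argonaute while the other is degraded. In muscle, miR-486 is made together with a short, muscle-specific Ank1 transcript, and MyoD and the SRF cofactor MRTF-A are known to drive it. Its 5p arm is the dominant strand and is known to repress Pax7, a factor of muscle stem cells, and Foxo1, a transcription factor of muscle atrophy. The same miRNA is also abundant in red blood cells, where it is made with the erythroid Ank1 transcript.

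The annotation places both precursors at the same position. Mir486 (ENSMUSG00000070084.3), the precursor of the a copy, lies on the plus strand of GRCm38 at chr8:23142555-23142682. Mir3107 (ENSMUSG00000106471.1), for which RefSeq gives mir-486b as a synonym, lies on the minus strand at chr8:23142573-23142662. All 90 bases of Mir3107 fall within the 128 bases of Mir486, so that the a and b copies are opposite strands of 1 stretch of DNA. GENCODE M21 lists 17 Ank1 transcripts, of which 15 span the precursors and 0 have an exon over them. In a long protein-coding transcript of 45 exons, the precursors sit in intron 44 (chr8:23141721-23148280). In a short form of 4 exons that starts 3450 bases before Mir486, they sit in intron 3. In all, 4 Ank1 transcripts start within 5000 bases upstream of Mir486. The minus-strand gene Gm15816 also runs across the precursors, with its intron over them.

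**Figure D1:**
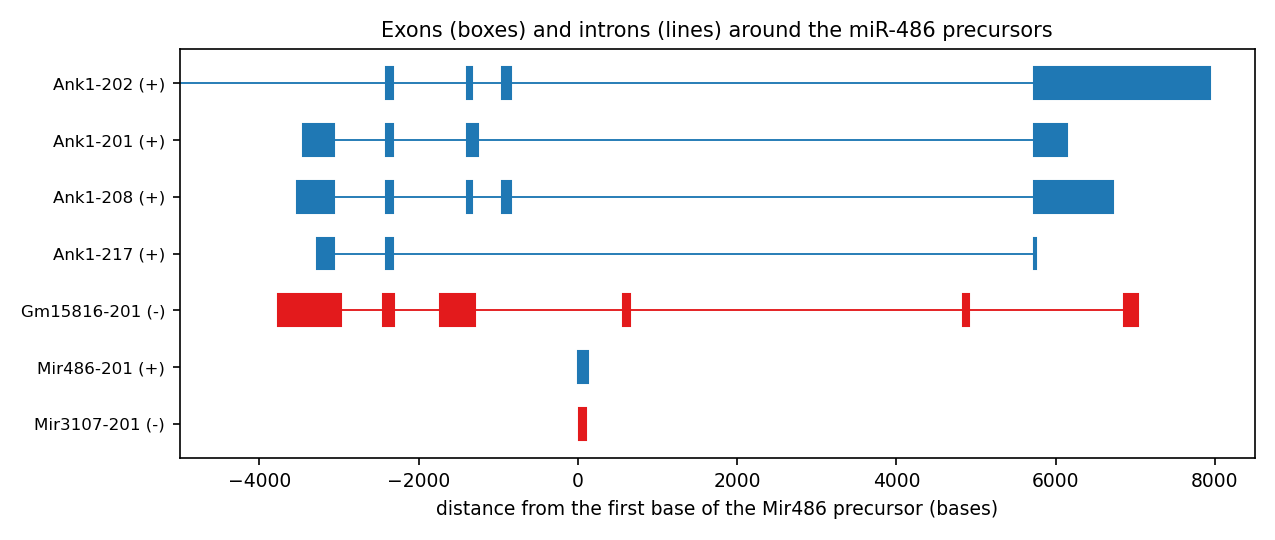
Exons (boxes) and introns (lines) of 4 Ank1 transcripts, the antisense gene Gm15816 and the 2 precursors, drawn by distance in bases from the first base of Mir486, with plus-strand transcripts in blue and minus-strand transcripts in red. The precursors lie on top of each other in the long intron before the last Ank1 exon, 3450 bases after the start of the short form of 4 exons. The long transcript in the top row runs on to the left of the plotted window.

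The rows of miR-486a-5p and miR-486b-5p held identical values in every sample. In 3 of the 4 samples the reads recovered from these values were not whole numbers, for example 23882.5 reads in NC-1. Of 9 groups of rows with identical values (mean of at least 2 RPM, the unit of the files, in which reads are scaled to the mappable reads of a sample), 3 could be looked up in full in the RefSeq miRNA table, and in all 3 the rows had the same mature sequence. Among miRNAs with a mean of at least 10 RPM, 26 of 30 whose mature sequence is made at more than 1 locus had a read number that was not whole, against 4 of 193 with a single locus. For a pair at the level of miR-486, miR-199a-3p and miR-199b-3p, and for a lower pair, let-7a-1-3p and let-7c-2-3p, the mature sequences are shown because they are what such rows share; they are from RefSeq (GRCm38.p6), run from 5′ to 3′, and carry the seed (bases 2 to 8), which pairs with target mRNAs, in capitals.
miR-199a-3p: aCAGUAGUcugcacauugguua
miR-199b-3p: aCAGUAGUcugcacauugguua
let-7a-1-3p: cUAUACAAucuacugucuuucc
let-7c-2-3p: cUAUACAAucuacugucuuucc
The first sequence is made at chr1:162217883-162217904 (Mir199a-2, plus strand), chr9:21496498-21496519 (Mir199a-1, minus strand) and chr2:32318524-32318545 (Mir199b, plus strand). The second is made at chr13:48538188-48538209 (Mirlet7a-1, minus strand) and chr15:85706664-85706685 (Mirlet7c-2, plus strand). Of the 4 miR-486 forms, 0 were matched in the RefSeq miRNA table, so their own mature sequences were not compared. How reads that match several copies were divided is not given in the sources used here. The amount of miR-486-5p in a sample therefore lies between the value of a single row and the sum of both rows, and the a and b rows of the 5p arm are 1 measurement, not 2.

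miR-486-5p was among the most abundant miRNAs of the myotubes. A single read was worth 0.177 to 0.211 RPM. Values are given first for the NC samples and then for the GAA samples, each in the order of their numbers. Each 5p row held 4849 and 6615 RPM without GAA and 6700 and 5640 RPM with it. It ranked 9th of 632 and of 622 miRNAs without GAA, and 15th of 701 and 12th of 693 with it. The sum of both rows was 9699, 13230, 13399 and 11279 RPM in the same order and would rank 7th in every sample. By mean RPM, the next miRNA above was miR-191-5p (6707 RPM, 4836 to 9853 in the 4 samples) and the next below was miR-30d-5p (5804 RPM, 3877 to 8089). The ranges of both cover all 4 values of miR-486a-5p, so these neighbours did not differ from it beyond the spread between samples. The ligation of adapters differs between miRNAs, so an order of read levels need not be an order of molecules.

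The 3p arms were rare. miR-486a-3p held 5.69 and 5.07 RPM without GAA and 11.9 and 12.9 RPM with it, from 28, 24, 66 and 73 reads. miR-486b-3p held 3.05, 2.64, 6.56 and 6.80 RPM, from 15, 12.5, 36.5 and 38.5 reads. In NC-2, GAA-1 and GAA-2 its reads were not whole, so its row may share reads with another. Whether it shares them with miR-486a-3p was not tested, so the a and b rows of the 3p arm may not be separate measurements. In every sample, both 3p arms were above the level of 3 reads (0.530 to 0.634 RPM), and the a copy was above the b copy. The reads of miR-486b-3p were 0.536, 0.521, 0.553 and 0.527 times those of miR-486a-3p, a ratio that differed little between samples (0.528 ± 0.011 in NC and 0.540 ± 0.018 in GAA, SD, n = 2). By mean RPM they ranked 256th and 306th. Their nearest neighbours were miR-296-3p (mean 8.94 RPM) and miR-206-5p (8.60 RPM) around the a copy and miR-191-3p (4.76 RPM) and miR-455-5p (4.76 RPM) around the b copy. The ranges of these neighbours over all 4 samples overlapped those of the 3p arms, which include the difference between NC and GAA. Within a group they did not always overlap. For example, miR-206-5p was above miR-486a-3p in both NC samples and below it in both GAA samples.

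**Figure D2:**
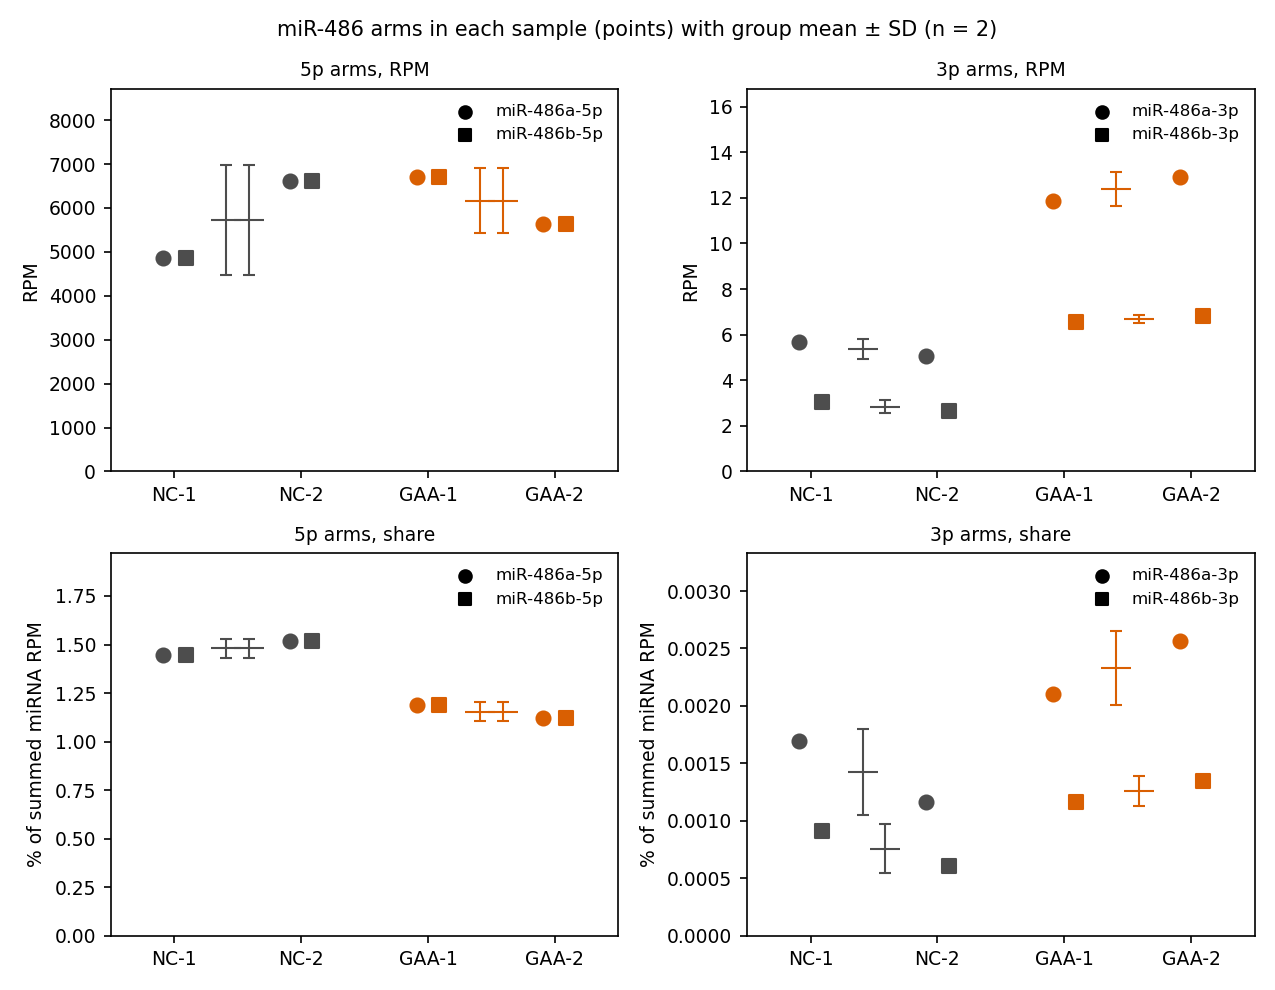
Level of each miR-486 arm in the 4 samples, as RPM (top) and as percent of the summed miRNA RPM (bottom), with the 5p arms on the left and the 3p arms on the right; points are samples (grey NC, orange GAA), and bars are the group mean ± SD (n = 2). The a and b values of the 5p arm coincide. NC and GAA overlap for the 5p arm in RPM, the 5p share is lower in both GAA samples, and both 3p arms are higher in both GAA samples in both units.

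No arm of miR-486 passed the test between GAA and NC. miR-486a-5p was 5732 ± 1248 RPM in NC and 6170 ± 749 RPM in GAA (SD, n = 2), a ratio of 1.08. GAA-1 was the highest sample and NC-1 the lowest, NC-2 lay above GAA-2, and the groups overlapped. The log2 fold change was 0.12 (SE 0.24, limma adjusted p = 0.758), and miR-486b-5p gave the same values because its row is the same. Without NC-1 this log2 difference was -0.11, and without GAA-1 it was -0.01.

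Both 3p arms were higher in GAA than in NC in each pair of samples, by about the same factor, though their rows may share reads. miR-486a-3p was 5.38 ± 0.43 RPM in NC and 12.4 ± 0.74 RPM in GAA (SD, n = 2), a ratio of 2.30 and a log2 fold change of 1.07 on the log2(RPM + 1) scale (SE 0.19, limma adjusted p = 0.205). miR-486b-3p was 2.84 ± 0.29 RPM in NC and 6.68 ± 0.18 RPM in GAA, a ratio of 2.35 and a log2 fold change of 1.0 (SE 0.21, limma adjusted p = 0.205). The groups did not overlap for either arm, but neither arm reached the false discovery rate of 0.01 that was required together with an absolute log2 fold change above 1.

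By that rule 0 of 869 miRNAs (0%) were called by limma, with 152 (17.5%) at an unadjusted p under 0.05, and voom weights on recovered reads also called 0. When the RPM was divided by the summed miRNA RPM or by median-of-ratios factors, 1 miRNA was called, which was miR-208b-3p. The lowest adjusted p, 0.205, was shared by 44 miRNAs, including both 3p arms.

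The background of the RPM values moved with the condition. Of the mappable reads, 33.6% and 43.6% were miRNAs without GAA and 56.3% and 50.4% with it. Among 410 miRNAs with a mean of at least 1 RPM, both GAA samples lay above both NC samples for 260 (63.4%) and below them for 14 (3.41%), and the median log2 fold change was 0.49. Against this, 68 of the 410 (16.6%) had a lower log2 fold change than miR-486a-5p, and 26 had a higher log2 fold change than miR-486a-3p. In total, 34 of the 410 had a log2 fold change of at least 1. A share near 63.4% is therefore the level against which the non-overlap of the 3p arms in RPM is read.

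Dividing by the summed miRNA RPM removed most of that shift, with a median log2 fold change of 0.05. Without GAA, a 5p row made up 1.44% (95% Wilson interval 1.43 to 1.46%) and 1.52% (1.50 to 1.53%) of the miRNA RPM. With GAA, it made up 1.19% (1.18 to 1.20%) and 1.12% (1.11 to 1.13%). Both GAA samples were below both NC samples, as for 78 of the 410 miRNAs (19%). The share was 1.48 ± 0.051% in NC and 1.15 ± 0.050% in GAA (SD, n = 2), a ratio of 0.780, with a log2 difference of -0.36 (SE 0.20, limma adjusted p = 0.717). In this unit the direction of the 5p arm was the reverse of that in RPM, and neither passed the test.

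The share of miR-486a-3p was 0.00169% and 0.00116% without GAA and 0.00211% and 0.00256% with it. It remained higher in both GAA samples, as for 97 of the 410 miRNAs (23.7%), but the Wilson intervals of NC-1 (0.00117 to 0.00245%) and GAA-1 (0.00166 to 0.00268%) overlapped. The log2 difference was 0.65 (SE 0.30, limma adjusted p = 0.634) for miR-486a-3p and 0.61 (SE 0.34, limma adjusted p = 0.717) for miR-486b-3p.

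**Figure D3:**
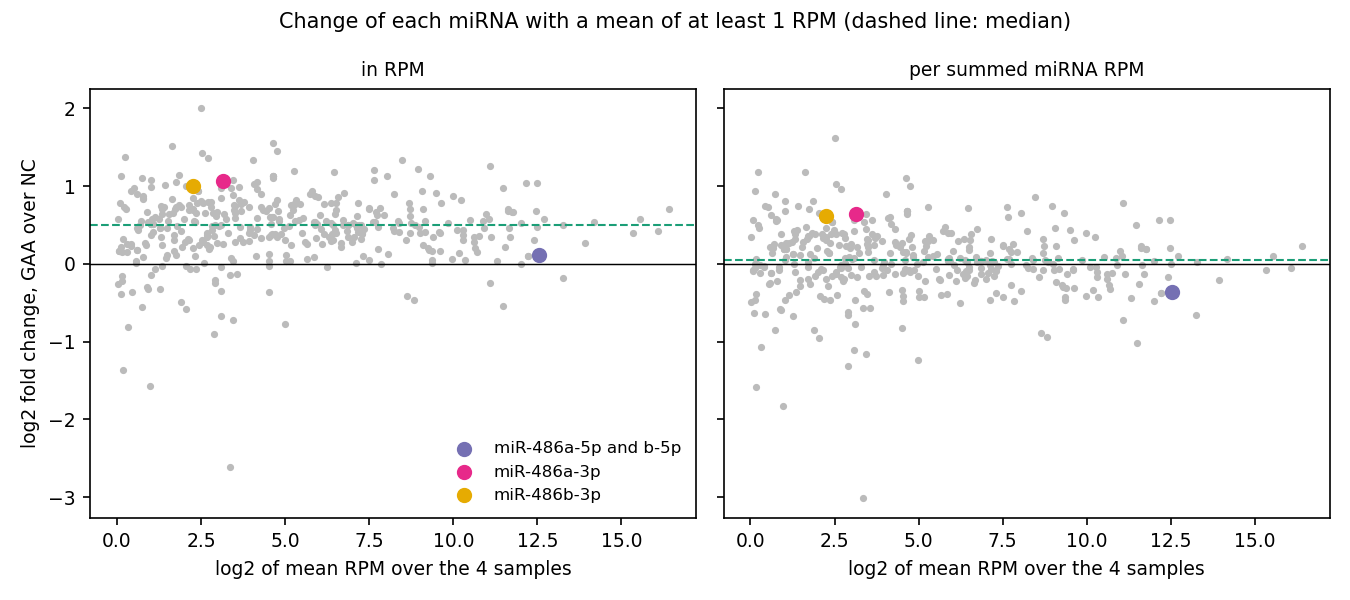
Log2 fold change of GAA over NC against the log2 of the mean RPM for the 410 miRNAs with a mean of at least 1 RPM (grey points), in RPM on the left and per summed miRNA RPM on the right, with the median as a dashed line (0.49 on the left and 0.05 on the right). The 5p arm of miR-486 (purple) lies below the median in both panels, at 0.12 and -0.36, and the 3p arms (pink and yellow) lie above it, at 1.07 and 1.0 on the left and 0.65 and 0.61 on the right.

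The 4 rows together held 2.89% and 3.03% of the summed miRNA RPM without GAA and 2.38% and 2.24% with it. The mean was 2.96 ± 0.10% in NC and 2.31 ± 0.099% in GAA (SD, n = 2), a ratio of 0.781. Both GAA samples were below both NC samples. The exact two-sided permutation test gave p = 0.333, the smallest value that 2 against 2 samples allow. With miR-486b-5p dropped, and rows of 1 mature sequence in the RefSeq miRNA table counted once, the shares were 1.49%, 1.56%, 1.22% and 1.15%. Almost all of this share was the 5p arm.

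The comparison of the arms does not depend on which total is used as divisor, apart from the 1 added to each RPM. Reads of a 5p row outnumbered those of the 3p arm of the a copy by a factor of 853 and 1304 without GAA and of 565 and 437 with it. For the b copy the ratios were 1592, 2504, 1022 and 829. Both ratios were lower in both GAA samples than in either NC sample.

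Put as a share of the reads of the a copy, the 3p arm without GAA was 0.117% (95% Wilson interval 0.0810 to 0.169%) and 0.0766% (0.0515 to 0.114%). With GAA it was 0.177% (0.139 to 0.225%) and 0.228% (0.182 to 0.287%). The intervals of NC-1 and GAA-1 overlapped, while that of GAA-2 lay above both NC intervals. The 3p share averaged 0.0969 ± 0.0286% in NC and 0.202 ± 0.036% in GAA (SD, n = 2), and for the b copy it averaged 0.0513 ± 0.0162% and 0.109 ± 0.016%. Because how reads were shared between the 5p rows is not known, these shares compare samples rather than give the true amount of each strand.

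On the log2(RPM + 1) scale, the 5p arm of the a copy exceeded the 3p arm by 9.50 and 10.09 without GAA and by 9.03 and 8.66 with it. The mean difference was 9.80 ± 0.41 in NC and 8.84 ± 0.26 in GAA (SD, n = 2), a change of -0.95. For the b copy the difference was 10.53 ± 0.42 in NC and 9.64 ± 0.21 in GAA, a change of -0.88. In both copies each GAA value was lower than each NC value, and the exact two-sided permutation test gave p = 0.333, the smallest possible. From the ratio of recovered reads, without the added 1, the changes were -1.09 and -1.12.

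Arm differences could be formed for 125 precursors with a mean of at least 1 RPM on both arms, and 30 of them (24%) had both GAA samples below both NC samples. The median change over the 125 was -0.06, and the changes of miR-486a and miR-486b were the second and the fifth largest falls. The only fall of at least 1 was that of miR-1843b, at -1.46. A limma fit over the 125 precursors called 0 of them, with 6 at an unadjusted p under 0.05. It gave miR-486a an SE of 0.45 (adjusted p = 0.883) and miR-486b an SE of 0.47 (adjusted p = 0.883). The a and b values are not separate evidence, since they share the 5p row.

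For most of the 125 precursors the arms were less uneven than for miR-486. Precursors whose minor arm lay below the required mean RPM were left out. So were those whose arms differ in name beyond 5p and 3p, such as miR-26a-5p and miR-26a-2-3p. The arms of precursors left out can be more uneven. The ranks therefore hold only within the 125 and give no place among all precursors. Ranked by the absolute mean arm difference, miR-486b was 4th and miR-486a 7th of the 125, after miR-143 (-11.73, a 3p miRNA), miR-22 (-10.62, also 3p) and miR-191 (10.20, 5p). A shift towards the minor arm was not general: the minor arm was higher against the major arm in GAA for 63 of the 125 precursors, with a median change of 3.56e-05. In this orientation miR-486a ranked 3rd and miR-486b 6th.

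**Figure D4:**
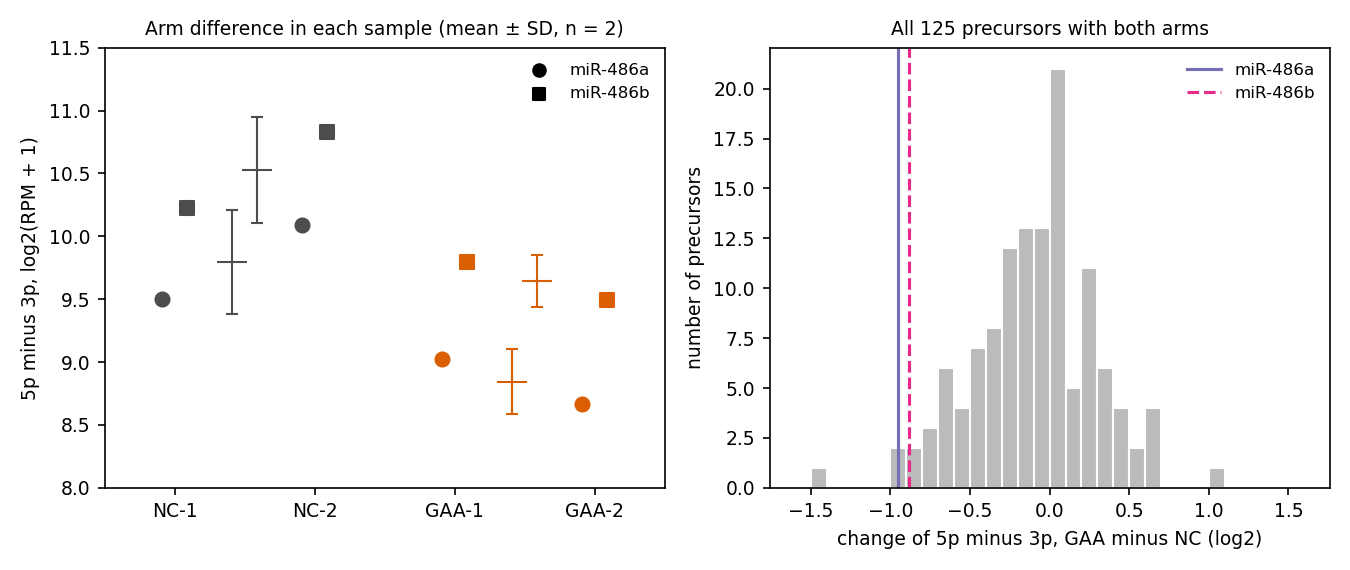
Left, the 5p minus the 3p level of miR-486a (circles) and miR-486b (squares) on the log2(RPM + 1) scale in each sample (grey NC, orange GAA), with group mean ± SD (n = 2); the axis does not start at 0. Right, number of precursors by the change of this difference from NC to GAA for the 125 precursors, with miR-486a (-0.95) and miR-486b (-0.88) as lines at the low end.

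The miRNAs whose profile over the 4 samples was closest to that of miR-486a-5p were miR-24-1-5p, miR-378d, miR-378c, miR-93-5p and miR-181c-5p. Their distances to it were 0.061, 0.11, 0.11, 0.13 and 0.13 on the log2(RPM + 1) scale centred on each mean, among 249 other miRNAs with a mean of at least 10 RPM. All 5 overlapped between the groups in RPM and were lower in both GAA samples as a share, like miR-486a-5p. miR-24-1-5p stood at 27.0 and 35.5 RPM without GAA and at 35.9 and 31.3 RPM with it, with the same order of samples as miR-486a-5p. Over 4 samples such a likeness is a description.

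Most canonical muscle miRNAs lay lower in GAA in RPM. The list held 15 miRNAs of the miR-1, miR-133, miR-206, miR-208 and miR-499 families of muscle, of which miR-208 and miR-499 are made with myosin genes. Of these 15 miRNAs, 11 were detected, and 0 passed the test. Of the 10 with a mean of at least 1 RPM, 7 had both GAA samples below both NC samples in RPM and 1, miR-133b-5p, had both above, beside 3.41% below and 63.4% above among the 410 miRNAs. As a share of miRNA RPM, 9 of the 10 had both GAA samples below and 0 had both above, beside 19% and 23.7% of the 410. The median log2 fold change of the 11 was -0.49, beside 0.49 for the 410 miRNAs. miR-133a-3p, the most abundant of them, stood at 3059 and 3787 RPM in NC and at 2251 and 2409 RPM in GAA (log2 fold change -0.55, SE 0.19, limma adjusted p = 0.276). In every sample it was below a 5p row of miR-486. miR-208b-3p, which lies within the slow myosin gene Myh7, was 18.2 ± 0.66 RPM in NC and 2.23 ± 1.16 RPM in GAA (log2 fold change -2.62, SE 0.32, limma adjusted p = 0.205). The summed RPM of the 11 was 5672 and 7143 in NC and 4565 and 4933 in GAA. This was below the sum of the 5p rows in every sample, but above a single 5p row in both NC samples and below it in both GAA samples, so the order without GAA depends on how the 5p rows are counted. The difference between miR-486 and this list was not tested.

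The markers of red blood cells, the other known source of miR-486, had few reads in these libraries. miR-451a, used with miR-144 as a marker of red blood cells, had 10 and 4 reads without GAA and 4 and 1 with it. miR-144-3p had 25, 9, 1 and 4 reads and miR-144-5p had 2, 1, 2 and 1. The 3 together summed to 7.51 and 2.96 RPM in NC and to 1.26 and 1.06 RPM in GAA. The 3p arms of miR-486 were higher in both GAA samples, while the 5p arm overlapped in RPM and was lower in both GAA samples as a share, and the part of these markers in those values was not tested. Of 6 white blood cell miRNAs, 5 were detected, with a summed level of 80.0 and 119 RPM in NC and 162 and 96.3 RPM in GAA. Most of it was miR-155-5p, and miR-223-3p, the myeloid marker, had no reads in 3 of the 4 samples. Within this list miR-142a-5p was 6.64 ± 0.77 RPM in NC and 15.2 ± 2.44 RPM in GAA (limma adjusted p = 0.205), and its part in the values of miR-486 was not tested.

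**Figure D5:**
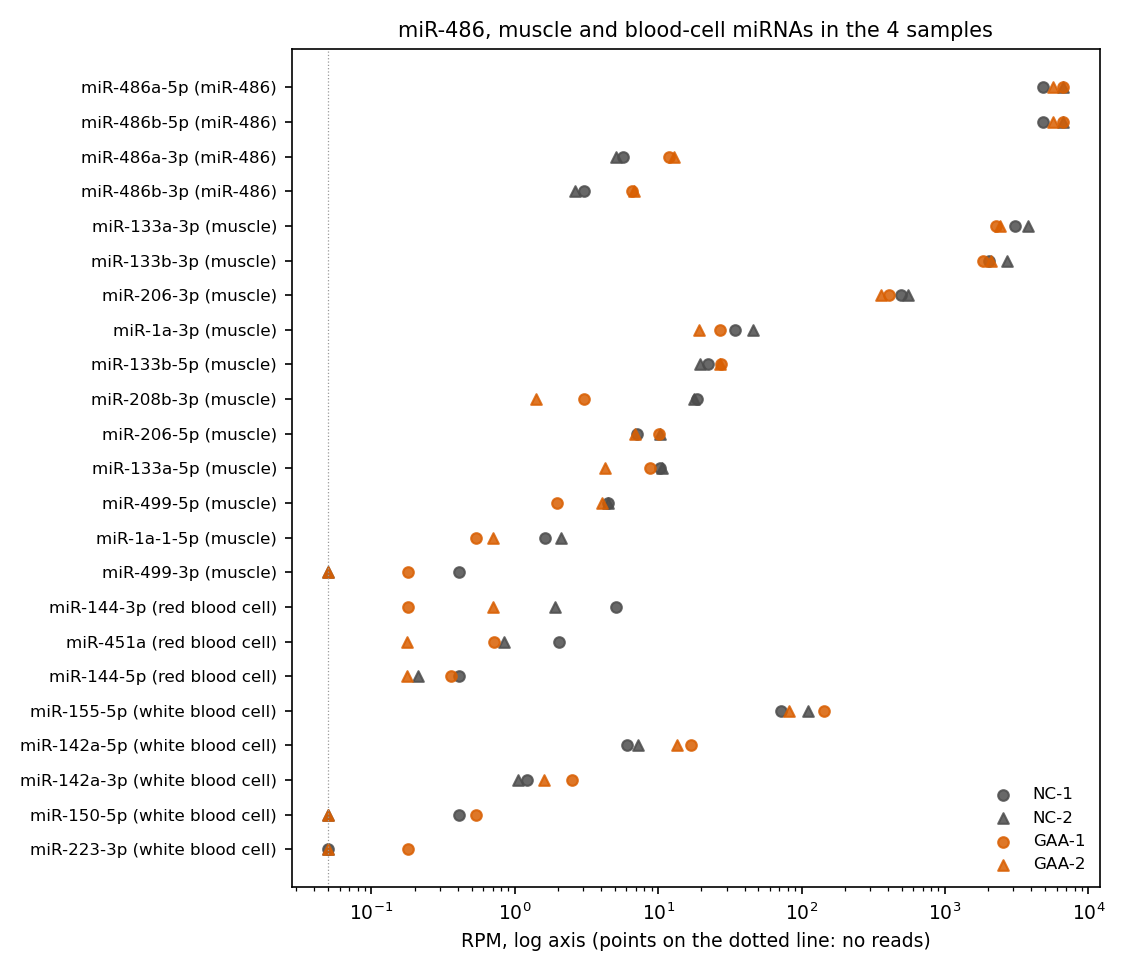
RPM on a log axis of the 4 miR-486 arms and of the detected muscle, red blood cell and white blood cell miRNAs in each sample (grey NC, orange GAA; circles sample 1, triangles sample 2), with values without reads on the dotted line. The 5p arm of miR-486 is the highest row of the plot, the muscle miRNAs lie mostly to the left in GAA, and the red blood cell miRNAs stay at or below 5.08 RPM.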

How the data were processed

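The authors filtered and mapped the small RNA reads to GRCm38.p5, counted known miRNAs of miRBase with miRDeep2 and divided by the mappable reads. The files as deposited hold log2(RPM + 1) and omit miRNAs that had no reads; base and added 1 were read from the values. Reads were recovered from these values, with the commonest low RPM value of a sample taken as 1 read and then refined. This gave 4732359 to 5657704 mappable and 1653803 to 3134241 miRNA reads per sample, and 95.4% to 96.0% of read numbers were whole (tolerance 0.05). Intervals and the floor of 3 reads cover counting error only.

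The groups were tested in R 4.3.3 by limma 3.58.1 on log2(RPM + 1) (trend, condition as the only term, Benjamini-Hochberg over 869 miRNAs). The authors' thresholds (FDR under 0.01, absolute log2 fold change above 1) were kept, but the authors applied them to a different test, edgeR on read counts. The fits were tested on simulated data with larger changes and less added noise than seen for miR-486, so this gives no power for the values reported here. Single values were compared by exact permutation (scipy 1.17.1). Named miRNAs are the members, the muscle and blood-cell lists, the 5 nearest profiles, immediate neighbours in rank and, after their values were seen, precursors at the ends of the arm comparison. Groups follow the sample labels, which give no batch. Members and lists were chosen with earlier results of these data known. Alternatives were other divisors, a pseudocount of 0.1, a minimum mean of 1 RPM, the replicate block, voom weights, limma over arm differences (added after seeing the data) and each sample left out.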

Additional observations from a re-analysis of the deposited data

How the results depend on the processing

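Of 254 values recomputed under alternatives, 226 kept direction and side of the threshold. Dividing by the summed miRNA RPM and by median-of-ratios factors each called 1 miRNA (miR-208b-3p, -3.02 and -3.06) and turned, by the construction of these divisors, miR-486a-5p and miR-486b-5p to -0.36 and -0.41, miR-133b-5p to -0.092 and -0.14, miR-150-5p to -0.0559 and -0.0556, and miR-155-5p to -0.21 and -0.26. With each sample left out in turn, where a lone sample is assumed to vary like the other group, values ranged from -0.11 to 0.34 for miR-486a-5p and miR-486b-5p, -0.28 to 0.21 for miR-206-5p, -0.37 to 0.12 for miR-499-3p, -0.15 to 0.062 for miR-144-5p, -0.25 to 0.38 for miR-150-5p and -0.13 to 0.67 for miR-155-5p; other causes of a turn were not tested. The 3p arms stayed higher in GAA under every alternative run, from 0.60 to 1.19 (miR-486a-3p) and 0.57 to 1.21 (miR-486b-3p), with adjusted p from 0.0935 to 0.634 and from 0.0935 to 0.717, and the arm differences stayed lower, from -1.24 to -0.66 and from -1.18 to -0.58. The difference in the share of the 4 rows was -0.65 percentage points. It was -0.34 with miR-486b-5p and repeats of a known mature sequence left out, since 1 of the equal rows is then dropped.

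The labels do not say whether same-numbered samples were paired. Their deviations from the group means had a correlation of -0.10 over 251 miRNAs. With 2 samples a group this is a single comparison and cannot decide the question. With the replicate block, 0 miRNAs were called, and miR-486a-5p was 0.12 (adjusted p = 0.860), miR-486a-3p 1.07 and miR-486b-3p 1.0 (both adjusted p = 0.402). With 2 samples a group, an exact test cannot pass 0.05, and 12.5 to 73 reads limit the 3p arms.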
